A study of Mus musculus with 1 sample.

Results

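The genes described here are the cadherins, the protocadherins outside the clustered families and their giant relatives, as measured by sc-RNA Seq, the sequencing of RNA from single cells, in the cortex of wild-type (WT) mice at P0, the day of birth. The members were all rows of the count table whose symbol is Cdh or Pcdh followed by a number (with Pcdh11x), together with the large relatives Celsr1 to Celsr3, Fat1 to Fat4 and Dchs1, while the clustered Pcdha, Pcdhb and Pcdhg genes were left out. This rule gave 43 of the 51912 genes, and it used no measured value. The animals were C57BL/6 and labelled wild type, the labels state no number of animals, and the data consist of 1 WT library of 11062 cells and 90346034 UMIs (unique molecular identifiers, which count each captured transcript once). A knock-in of SERPINA3 (SERPINA3f/+;Nestin-Cre), named in the design of the study, was not analysed here. Because there was 1 library, no replicate error and no test between samples exist, and the 95% intervals in brackets cover counting error alone.

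Cells were placed in classes by UMIs of marker genes, none of which is a member, in the 8447 cells with at least 2000 UMIs, and 3889 of them (46.0%) fell in exactly 1 gate. The classes were newborn excitatory neurons (125 cells, Eomes with Neurod2 or Neurod6), excitatory neurons of layer II/III (1564), IV (456), V (86), VI (850) and VIb (39), interneurons with Lhx6 (148) or with Adarb2, Prox1 or Sp8 (156), other inhibitory neurons (65), dividing progenitors (44), radial glia or astrocytes (174), oligodendrocyte precursors (109), and Cajal-Retzius (20), endothelial (20), mural (20) and microglial cells (13). Layer II/III was gated by markers that included Cux1 or Cux2, layer IV by Rorb with Inhba, layer V by Fezf2 and Bcl11b with Crym or Ldb2, layer VI by Tle4, Foxp2 and Hs3st4, and layer VIb by Ctgf or Cplx3 with other subplate markers. The gates also set upper limits on UMIs of markers of other broad classes. Those of layers II/III, IV and V limited markers of other layers too, and cells with Eomes were left out of every layer. Low marker values outside a gate thus follow in part from the gating. The part of these limits in the contrasts of members between layers, or with newborn neurons, was not tested. Neurod6 was at 838 CPM in layer II/III and 35.2 CPM in Lhx6 interneurons. Gad2 was at 446 CPM in Lhx6 interneurons, at most 6.54 CPM in any layer and 39.3 CPM in newborn excitatory neurons. Pdgfra was at 1159 CPM in oligodendrocyte precursors and 0 in radial glia or astrocytes. Of markers that no gate used, Sox10 was at 336 CPM in oligodendrocyte precursors and 0 in radial glia or astrocytes. Fabp7 was at 18936 CPM in radial glia or astrocytes and 3510 CPM in oligodendrocyte precursors. The deep layers shared more markers, with Tle4 at 597 CPM in layer VIb and 776 in layer VI, Fezf2 at 200.4 CPM in layer VI and 238 in layer V, and Ctgf at 582 CPM in endothelial cells and 191 in layer VIb. A level here is the UMIs of a gene summed over a class, per 1000000 UMIs (CPM) of that class without mitochondrial genes, and a gene is said to differ when 2 levels lie at least 2-fold apart. Such a call is a size and not a test. The median cell held between 4509 UMIs (Adarb2 interneurons) and 20120.5 (layer V).

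Cadherins are membrane proteins that bind between cells through repeated calcium-dependent domains. Type I and type II cadherins hold cells together mostly by binding their own kind and are tied to actin through catenins, whereas the delta protocadherins adhere more weakly and signal through other partners, among them the WAVE complex that drives actin branching. Celsr, Fat and Dachsous proteins are giant relatives that orient cells within a sheet (planar cell polarity). In the developing cortex, N-cadherin (Cdh2) holds the radial glia together at the ventricle, and combinations of type II cadherins are known to mark areas, layers and connected groups of neurons.

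Several of these genes lie next to each other in the genome, and 4 type II cadherins from 1 stretch of mouse chromosome 15 had different profiles over the classes. In RefSeq (GRCm38.p6), Cdh6, Cdh9, Cdh10 and Cdh12 follow each other with 0 other protein-coding genes between them, and 1 lies between Cdh12 and Cdh18. Their promoters are given as 300 bases from 250 before to 50 after the start, all on the + strand and from RefSeq in the build GRCm38.p6, to set the sequences beside the levels: Cdh9 (chr15:16728665-16728964), Cdh10 (chr15:18820079-18820378), Cdh12 (chr15:21111202-21111501) and Cdh18 (chr15:23036213-23036512). Capitals mark CAGCTG, a palindromic E-box that basic helix-loop-helix factors can bind.
Cdh9: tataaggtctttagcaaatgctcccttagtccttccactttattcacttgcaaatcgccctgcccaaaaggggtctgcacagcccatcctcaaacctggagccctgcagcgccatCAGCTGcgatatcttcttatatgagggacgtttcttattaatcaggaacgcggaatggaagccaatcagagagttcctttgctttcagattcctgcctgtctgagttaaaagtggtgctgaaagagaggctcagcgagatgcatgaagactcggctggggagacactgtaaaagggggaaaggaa
Cdh10: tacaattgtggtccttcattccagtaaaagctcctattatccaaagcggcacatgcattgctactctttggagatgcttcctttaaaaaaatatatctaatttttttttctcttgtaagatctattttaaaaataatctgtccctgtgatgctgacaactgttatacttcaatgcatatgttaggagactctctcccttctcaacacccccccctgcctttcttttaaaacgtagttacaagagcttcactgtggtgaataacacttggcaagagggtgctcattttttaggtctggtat
Cdh12: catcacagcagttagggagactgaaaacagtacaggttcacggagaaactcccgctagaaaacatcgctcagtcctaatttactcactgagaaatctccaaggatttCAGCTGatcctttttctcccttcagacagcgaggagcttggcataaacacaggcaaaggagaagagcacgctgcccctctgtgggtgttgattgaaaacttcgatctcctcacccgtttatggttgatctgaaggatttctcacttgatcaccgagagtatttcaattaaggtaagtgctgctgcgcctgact
Cdh18: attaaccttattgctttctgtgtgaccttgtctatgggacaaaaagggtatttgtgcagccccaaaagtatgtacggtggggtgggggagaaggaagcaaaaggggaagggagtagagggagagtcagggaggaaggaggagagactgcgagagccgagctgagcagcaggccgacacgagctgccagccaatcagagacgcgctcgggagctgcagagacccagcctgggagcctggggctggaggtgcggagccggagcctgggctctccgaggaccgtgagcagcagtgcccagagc
The E-box CAGCTG was found in the promoters of Cdh9 and Cdh12 (135 and 143 bases before the start), and in 16.3% of all 32841 promoters of the table. Of the 4 other motifs searched on both strands, none was found in these 4 sequences: the TATA box TATAAA (in 13.6% of all promoters), the E-box CAGATG (17.2%), the homeodomain core TAATTA (5.29%) and the GC box GGGCGG (35.7%). The 4 sequences held 8, 2, 9 and 12 CpG pairs in that order, against a median of 7 over all promoters and 14 over the 31 promoters of members. Promoters of 28 members were in the table. No match overlapped another. A match is a run of letters and was not tied to any factor here.

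Cdh9 was highest in Lhx6 interneurons at 56.5 CPM (43.3 to 72.6) and second in layer VI at 33.8 CPM (30.3 to 37.7). In Adarb2 interneurons 0 UMIs of Cdh9 were counted, and the limit of 3 UMIs set for a class at 0 is 4.11 CPM there. Its neighbour Cdh10 was highest in layer VIb at 174 CPM (146 to 206) and next in newborn excitatory neurons at 127 CPM (106 to 150.1), with 95.3 CPM in layer IV and its lowest level among the layers, 13.6 CPM, in layer V. Cdh12, also called brain cadherin, was an upper-layer gene, with 59.2 CPM (55.1 to 63.5) in layer II/III and 45.8 CPM (40.8 to 51.3) in layer IV. It stayed at or below 10.3 CPM (1 UMI, in microglia) in every other class. Cdh18 was highest in layer VIb at 45.8 CPM (31.9 to 63.7), followed by 17.6 CPM in layer VI and 13 CPM in layer V, and 8 UMIs in 1564 cells of layer II/III put it at 0.612 CPM there. Cdh6, the first gene of the stretch, was low throughout, with its largest count in layer IV (63 UMIs, 9.59 CPM). Cdh9, Cdh10 and Cdh12 thus had their highest levels in different classes, while Cdh10 and Cdh18 shared layer VIb as the highest.

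**Figure D1:**
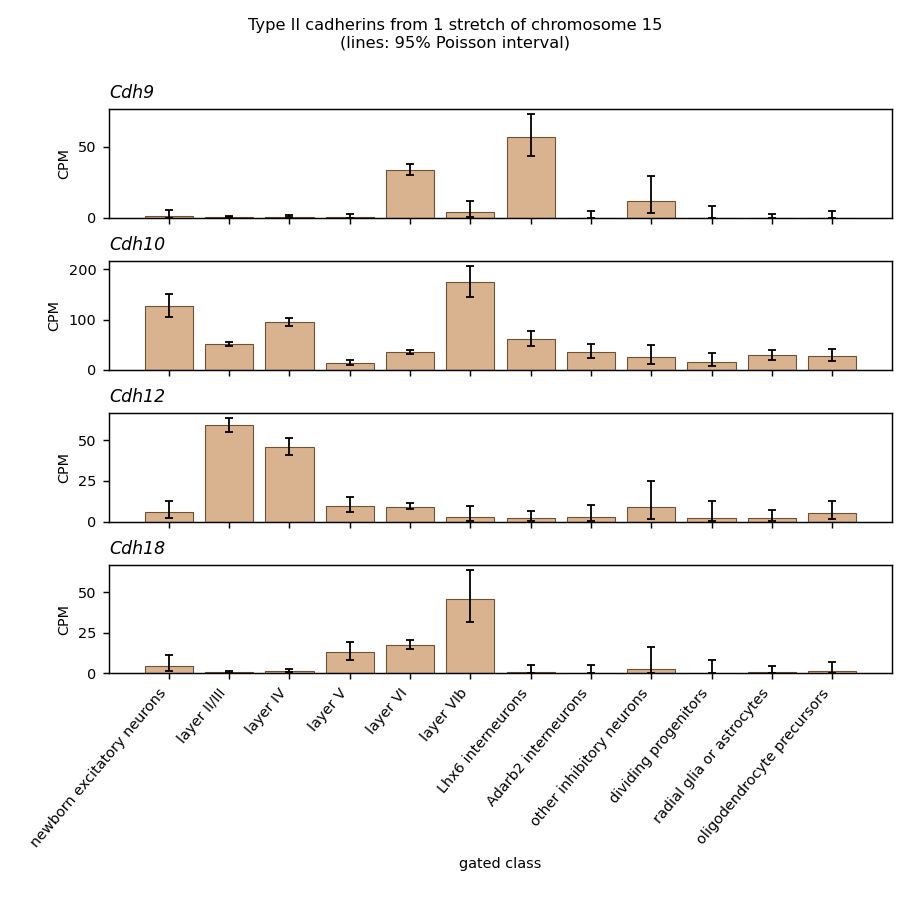
Level (CPM, linear axis from 0, own scale for each gene) of Cdh9, Cdh10, Cdh12 and Cdh18 in 12 gated classes, with 95% Poisson intervals as lines. Cdh9 stood in layer VI and Lhx6 interneurons, Cdh10 in layer VIb and newborn neurons, Cdh12 in layers II/III and IV, and Cdh18 in layer VIb.

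Over the whole library, UMIs of the members came to 152278, or 0.175% of the total without mitochondrial genes. Cdh1 (E-cadherin) and Cdh16 had 0 UMIs. Cdh3, Cdh17, Cdh19, Cdh23, Cdh26 and Fat2 had between 2 and 21 UMIs in all 11062 cells, too few to compare classes. A highest class with at least 20 CPM and 20 UMIs was found for 30 members. By highest class these were Celsr2 and Dchs1 in newborn neurons, Cdh12, Fat4 and Pcdh8 in layer II/III, Pcdh20 in layer IV, Cdh7 and Cdh8 in layer V, Pcdh7 in layer VI, and Cdh10, Cdh13, Cdh18 and Pcdh9 in layer VIb. Lhx6 interneurons were the highest class of Cdh9 and Pcdh19, and Adarb2 interneurons that of Celsr3. Cdh2, Celsr1, Fat1 and Pcdh10 were highest in radial glia or astrocytes, and Cdh20, Pcdh11x, Pcdh15 and Pcdh17 in oligodendrocyte precursors. Endothelial cells were the highest class of Cdh5, Pcdh1 and Pcdh12, mural cells of Pcdh18, and Cajal-Retzius cells of Cdh4 and Fat3. The lead over the next class did not exceed counting error for Cdh7, Celsr1, Celsr2, Celsr3, Fat1, Pcdh7, Pcdh9, Pcdh11x, Pcdh12 and Pcdh19. The remaining members with more counts, Cdh6, Cdh11, Cdh15, Cdh22 and Cdh24, did not meet this rule. Of these, Cdh11 had 4304 UMIs and its highest level, 152 CPM in mural cells, rested on 19 UMIs, whereas 994 UMIs put it at 102 CPM in layer VI.

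**Figure D2:**
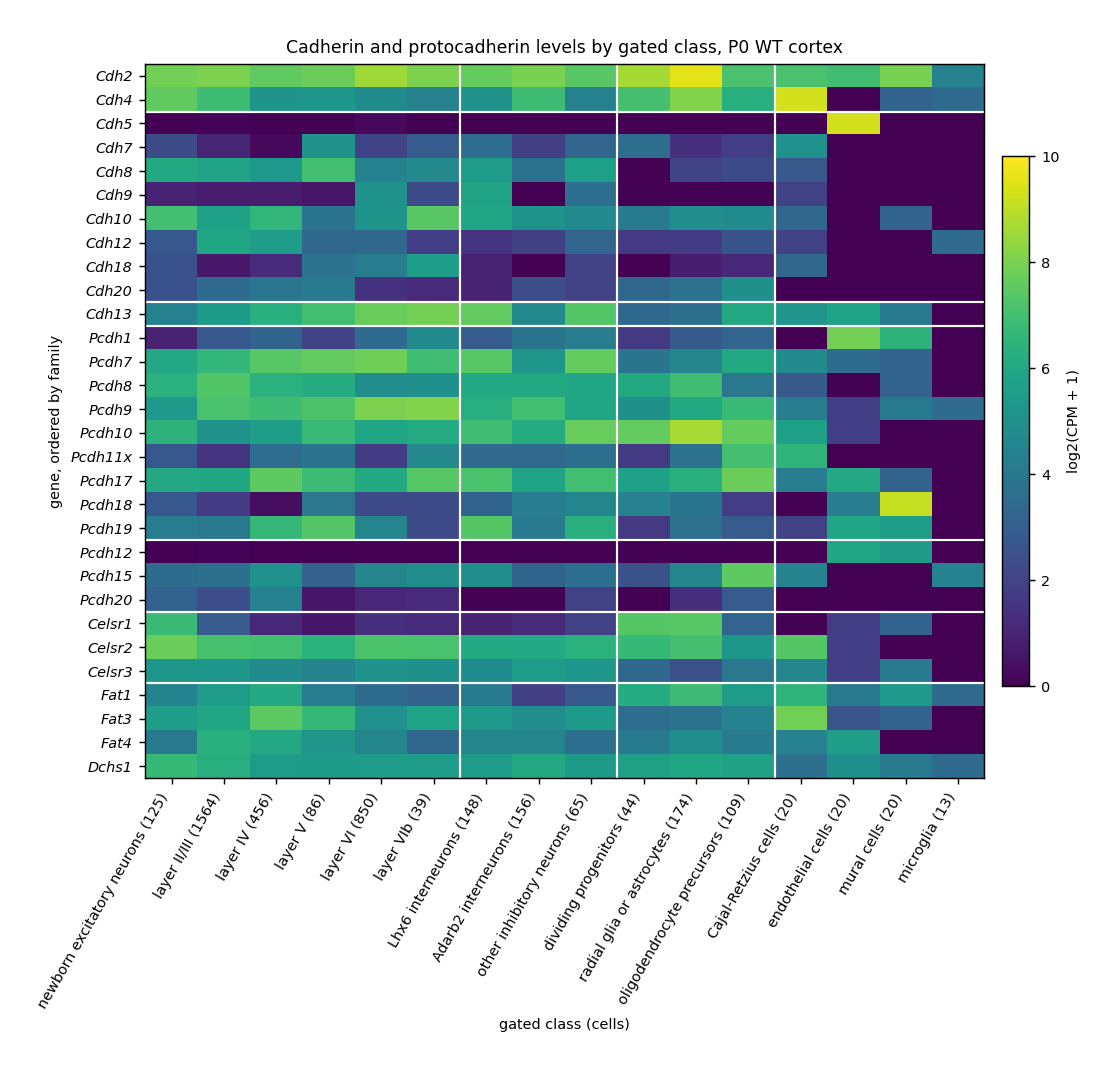
Levels of the 30 members with at least 20 CPM and 20 UMIs in some class, as log2(CPM + 1) by colour, in 16 gated classes (cells in brackets), with white lines between families and between groups of classes. Cdh2 was found in every class with its highest level in radial glia or astrocytes, Cdh5 stood in endothelial cells, Pcdh18 in mural cells and Pcdh15 in oligodendrocyte precursors.

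The first question was which members mark 1 excitatory layer, that is, lie at least 2-fold above every other layer. Of 27 members with a mean level of at least 5 CPM over the 5 layers, 7 did so, or 25.9%, where 4.6% of all 10612 genes compared did. By layer, that share of all genes was 0.773% for layer II/III, 0.556% for IV, 0.754% for V, 0.565% for VI and 1.95% for VIb. The 7 members covered all 5 layers. Of these, Pcdh20, Cdh7 and Cdh9 reached the mean of 5 CPM only through the layer they marked, so the filter favours such genes and the share is a description. Of 27 partner genes (catenins, nectins, planar polarity and WAVE complex genes), 0 did.

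Cdh4, or R-cadherin, marked layer II/III. Its levels were 116 CPM in layer II/III, 34.9 in layer IV, 37.6 in layer V, 27 in layer VI and 19.6 in layer VIb, so that layer II/III stood 3.1-fold (2.45 to 3.98) above the next layer. Pcdh20, a protocadherin outside the delta group, marked layer IV. It was at 4.21 CPM in layer II/III, 20.1 in layer IV, 0.522 in layer V, 1.23 in layer VI and 1.31 in layer VIb, a 4.77-fold (3.46 to 6.66) step over layer II/III.

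Layer V was marked by the type II cadherins Cdh7 and Cdh8. Cdh7 was at 1.07 CPM in layer II/III, 0.152 in layer IV, 33.9 in layer V, 3.17 in layer VI and 6.54 in layer VIb, with 65 UMIs in the 86 cells of layer V and a 5.18-fold (2.11 to 16.5) lead over layer VIb. Cdh8, which is known from corticostriatal connections, was at 56.2 CPM in layer II/III, 39.6 in layer IV, 126 in layer V, 20.9 in layer VI and 24.9 in layer VIb, with a 2.25-fold (1.94 to 2.6) lead over layer II/III. The pair thus differed outside layer V, where Cdh8 was well detected in the upper layers and Cdh7 was nearly absent from them.

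In the deepest layers, Cdh9 marked layer VI and Cdh18 and Pcdh1 marked layer VIb. Cdh9 was at 0.766 CPM in layer II/III, 0.761 in layer IV, 0.522 in layer V, 33.8 in layer VI and 3.93 in layer VIb, which is 8.62-fold (2.92 to 42) over layer VIb, where 3 UMIs were counted. Cdh18 led in layer VIb by 2.61-fold (1.76 to 3.77) over layer VI. Pcdh1, a delta protocadherin whose highest levels in these cells lay in endothelial and mural cells, was at 5.82 CPM in layer II/III, 8.37 in layer IV, 3.13 in layer V, 10.3 in layer VI and 27.5 in layer VIb, a 2.66-fold (1.58 to 4.29) lead that rests on 21 UMIs in 39 cells. The endothelial marker Cldn5 was at 2.62 CPM in layer VIb, at most 0.818 CPM in the other layers and 7559 CPM in endothelial cells. The layer gates set an upper limit on UMIs of endothelial markers, Cldn5 among them. The part of endothelial RNA in the Pcdh1 level was not tested. Under 6 alternatives for depth, gates, doublets and scaling, all 7 kept the same layer on top by at least 2-fold. The count itself depended on the thresholds, with 2 of 20 members (3% of all genes) at a mean of at least 20 CPM, 12 of 33 (6.96%) at 1 CPM and 4 of 27 (1.78%) at a 3-fold line.

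**Figure D3:**
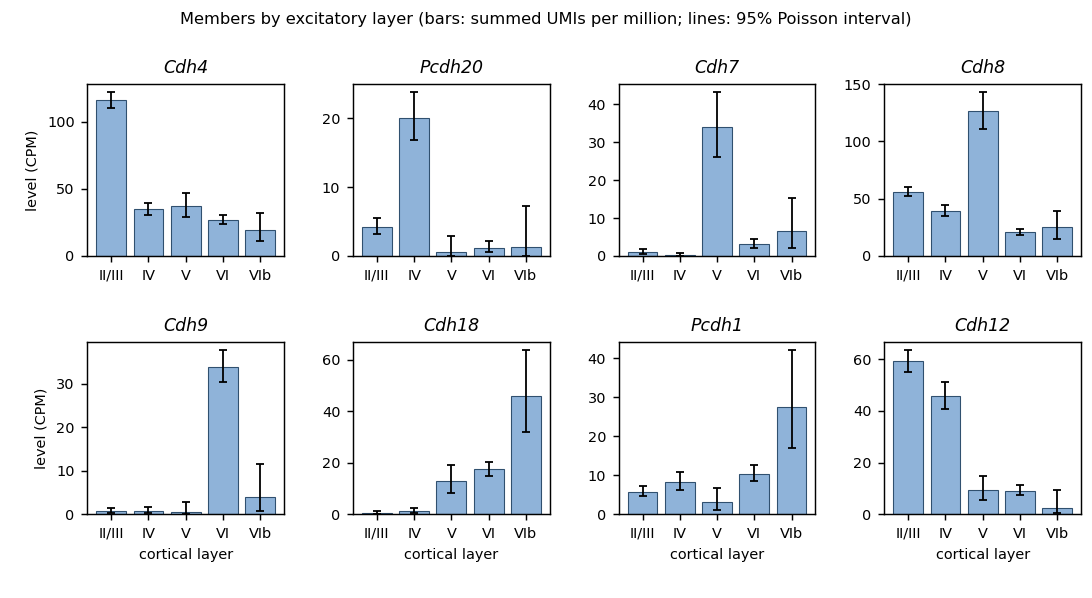
Level (CPM, linear axis from 0, own scale for each gene) of 8 members in the 5 excitatory layers, with 95% Poisson intervals. Cdh4 stood out in layer II/III, Pcdh20 in IV, Cdh7 and Cdh8 in V, Cdh9 in VI, Cdh18 and Pcdh1 in VIb, while Cdh12 was shared by layers II/III and IV.

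The other 20 compared members had a second layer within 2-fold of the highest. Cdh13, or T-cadherin, which is anchored in the membrane by a lipid and has no cytoplasmic tail, was higher in each deeper layer, at 42.1 CPM in layer II/III, 76.3 in layer IV, 125 in layer V, 202 in layer VI and 241 in layer VIb, and each step exceeded its counting interval. Pcdh7, a delta protocadherin that binds protein phosphatase 1, was highest in layer VI (223 CPM) and lowest in layer II/III (96.3 CPM). Pcdh9, of the same subgroup, was at 276 CPM in layer VIb and 259 CPM in layer VI, which did not differ beyond counting error, and between 119 and 148 CPM in layers II/III to V. Cdh2 was also highest in layer VI, at 379.7 CPM, and lowest in layer IV, at 185 CPM.

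Pcdh19, the X-linked gene of a childhood epilepsy that mostly affects girls, had 2 high layers. It was at 15.7 CPM in layer II/III, 101 in layer IV, 159 in layer V, 22.3 in layer VI and 3.93 in layer VIb. Layers IV and V thus stood well above layers II/III and VI on either side of them. Fat3 and Pcdh17 were highest in layer IV among the layers, Fat3 at 58.6 CPM in layer II/III, 176 in layer IV, 101 in layer V, 32.4 in layer VI and 55 in layer VIb, and Pcdh17, a delta protocadherin known from axon growth and synapses, at 181 CPM in layer IV and 170.2 CPM in layer VIb, which did not differ beyond counting error. Pcdh10, which binds the WAVE complex, was highest in layer V among the layers, at 107 CPM. Among the planar polarity genes, Celsr2 ranged from 83 to 143 CPM, Celsr3 from 21.4 to 37.1 CPM and Dchs1 from 42.3 to 75.3 CPM over the 5 layers. Fat1 and Fat4 spread more widely, Fat1 from 7.85 CPM in layer VIb to 67.6 CPM in layer IV, and Fat4 from 9.16 CPM in layer VIb to 81.1 CPM in layer II/III.

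The next comparison set the 2020 upper-layer neurons (II/III and IV) against the 975 deep-layer neurons (V to VIb). Among 26 members compared, 8 were higher in upper layers and 4 were higher in deep layers, together 46.2%, against 9.6% of 10622 genes (3.77% and 5.84% by direction). The members higher in upper layers were Pcdh20, Cdh12, Fat1, Pcdh8, Cdh4, Fat4, Cdh20 and Fat3, so 3 of the 4 Fat and Dachsous genes compared were among them. Cdh20, a type II cadherin, had its highest level among the layers in layer V, at 16.2 CPM, with 14.3 CPM in layer IV, 10.4 in layer II/III and 1.74 in layer VI, which holds most of the deep-layer cells. The members higher in deep layers were the type II cadherins Cdh9, Cdh18 and Cdh11 (also known as OB-cadherin) and Cdh13. Of the called members, Pcdh20, Cdh20, Cdh9 and Cdh18 reached the mean of 5 CPM only through the side where they were higher. The filter thus favours such genes, and the share is a description. The median log2 ratio of the members was 0.06 and that of all genes was -0.03.

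Among the upper-layer members, Pcdh20 was at 9.53 against 1.12 CPM, a ratio of 8.48-fold (4.93 to 15.8). Cdh12 was 6.2-fold (5.09 to 7.61) higher at 54.7 against 8.83 CPM. Fat1, a giant cadherin of cell contacts and actin, was 4.65-fold (3.9 to 5.59) higher at 53 against 11.4 CPM. Both Cdh12 and Fat1 moved further apart, to 17.2-fold and 9.70-fold, when the cells with the highest doublet scores were left out. Pcdh8, or arcadlin, a protocadherin induced by neuronal activity, was 3.62-fold (3.27 to 4.01) higher and Fat4, a receptor of Dchs1, was 3.12-fold (2.75 to 3.54) higher in upper layers. Dchs1, its ligand, was 1.5-fold (1.36 to 1.66) higher, below the 2-fold line.

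On the deep side, Cdh9 was at 0.764 against 26.9 CPM, or 35.2-fold (21 to 63.6) higher in deep layers, and Cdh18 was at 0.866 against 18.6 CPM, or 21.5-fold (13.1 to 37.5) higher. Both rest on under 20 UMIs in 2020 upper-layer neurons. Cdh13 was 3.59-fold (3.34 to 3.86) and Cdh11 2.92-fold (2.65 to 3.22) higher in deep layers. Of 27 partner genes, 2 were higher in upper layers and 4 in deep layers, or 7.41% and 14.8%, against 3.77% and 5.84% of all genes. Nectin3, a contact protein of adherens junctions, was at 214 against 40.2 CPM, 5.32-fold (4.85 to 5.85) higher in upper layers, and Prickle1, a core planar polarity gene, was at 8.46 against 71.6 CPM, 8.46-fold (7.16 to 10.1) higher in deep layers.

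Newborn excitatory neurons were compared with the 2995 layer neurons. Of 26 members, 3 were higher and 8 lower in newborn neurons, 42.3% in all, where 20.7% of 10909 genes differed (11.1% higher and 9.57% lower). Of the called members, Celsr1 and Cdh9 reached the mean of 5 CPM only through the class where they were higher, so the share is a description. The median log2 ratio was -0.62 for members and 0.09 for all genes. More members were thus lower than higher in newborn neurons, as set against all layers summed.

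Celsr1, a planar polarity receptor known from progenitor epithelia, was at 111 against 3.33 CPM, 33.4-fold (25.4 to 43.8) higher in newborn neurons. Cells were also thinned to 2000 UMIs each, so that shares could be compared across depth, and Celsr1 then had a UMI in 25.6% (18.2 to 34.2) of newborn neurons, 31.6% (24.8 to 39.1) of radial glia or astrocytes and 0.835% (0.541 to 1.23) of layer neurons (unthinned 52.8%, 69% and 3.41%, median depths 7025, 7247 and 9257 UMIs). Slc1a3, a marker of radial glia, was at 56.6 CPM in newborn neurons, 2260.1 CPM in radial glia or astrocytes and 14.2 CPM in layer II/III. The gates of excitatory neurons set an upper limit on its UMIs, and its part in the Celsr1 level was not tested. Neurog2 was at 117 CPM in newborn neurons, 118 CPM in dividing progenitors and at most 4.36 CPM in any layer. Whether the newborn gate held non-dividing progenitors was not tested. Cdh4 was 2.84-fold (2.44 to 3.29) and Cdh10 2.26-fold (1.88 to 2.7) higher in newborn neurons. With 2 times the marker UMIs required in every gate (the stricter gates), their ratios were 1.93 and 1.97 and both calls were lost, while that of Celsr1 was 93.2.

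The members lower in newborn neurons were Cdh9, Cdh12, Cdh13, Pcdh9, Fat4, Pcdh19, Cdh11 and Pcdh7. Cdh12 was at 5.75 against 36.9 CPM, 6.41-fold (2.94 to 17.5) lower, and Cdh13 was at 20.1 against 107 CPM, 5.33-fold (3.48 to 8.62) lower. Pcdh9 was 4.24-fold (3.14 to 5.86), Fat4 3.64-fold (2.23 to 6.38) and Pcdh19 2.51-fold (1.58 to 4.25) lower. These ratios are against all layers summed, and not all hold against layer II/III alone. Pcdh19 was at 17.3 CPM in newborn neurons and 15.7 in layer II/III, and Cdh9 at 0.959 and 0.766. Cdh11 was at 22.1 and 29.8 CPM and Pcdh7 at 65.2 and 96.3. Layer II/III was further above newborn neurons for Cdh12 (59.2 CPM), Cdh13 (42.1), Pcdh9 (137) and Fat4 (81.1). Cdh9 rested on 1 UMI in newborn neurons and its ratio was 0.621 under the stricter gates, so that call was lost. By contrast, Celsr2 (207 CPM), Dchs1 (102 CPM) and Celsr3 (38.4 CPM) stood between 1.15-fold and 1.79-fold above layer neurons, and the interval of Celsr3 held 1. Of newborn neurons, 16.8% were among the 8% of cells with the highest doublet scores, against 11.5% of layer neurons. Without those cells, the ratios of newborn to layer neurons were 0.102 for Cdh13, 0.0829 for Pcdh9, 0.101 for Fat4 and 0.132 for Pcdh19, further from 1 than with them.

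Of the partner genes, 2 of 27 were higher and 6 lower in newborn neurons, or 7.41% and 22.2%, against 11.1% and 9.57% of all genes. Ctnna1, the alpha-catenin of epithelia, was 4.49-fold (3.17 to 6.22) higher at 40.3 against 8.97 CPM. Dvl2, a planar polarity and Wnt adaptor, was 2.78-fold (2.01 to 3.76) higher. Prickle2 and Prickle1 were at 0.959 against 26.7 CPM and 2.88 against 33 CPM, and Nectin3 was 4.13-fold (2.99 to 5.87) lower.

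Across 6 broad classes (newborn neurons, layer neurons, interneurons, dividing progenitors, radial glia or astrocytes, oligodendrocyte precursors), 9 of 27 members compared marked 1 class at least 2-fold over every other, or 33.3%, against 13.1% of 11761 genes. Those genes were 0.782% for newborn neurons, 1.63% for layer neurons, 1.71% for interneurons, 3.71% for dividing progenitors, 3.15% for radial glia or astrocytes and 2.13% for oligodendrocyte precursors. Of 27 partner genes, 1 did. Cdh10 marked newborn neurons, Cdh12 layer neurons, Cdh9 and Pcdh19 interneurons, Pcdh10 radial glia or astrocytes, and Cdh20, Pcdh11x, Pcdh15 and Pcdh17 oligodendrocyte precursors. Dividing progenitors were marked by 0 members. Cdh9 and Cdh12 reached the mean of 5 CPM only through the class they marked, so the filter favours such genes and this share is a description. Layer neurons were summed here, and single layers reached the marked class in 3 cases: Cdh10 was at 174 CPM in layer VIb against 127 in newborn neurons, Pcdh19 at 159 CPM in layer V against 103 in interneurons, and Cdh9 at 33.8 CPM in layer VI against 33.7 in interneurons. Not all of these held in every setting. Cdh10 (1.90), Pcdh17 (1.80) and Pcdh19 (1.73) fell below 2-fold under the stricter gates, Pcdh17 also when at least 4000 UMIs were required, and Cdh9 (1.67) when each cell was given equal weight.

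Interneurons as a whole were compared with layer neurons. Here 5 of 26 members were higher and 5 lower, 38.5% in all, against 13.1% of 10892 genes (6.84% higher and 6.31% lower). Of the called members, Pcdh18, Cdh7, Cdh12 and Cdh20 reached the mean of 5 CPM only through the class where they were higher, so the share is a description. The median log2 ratio was -0.13 for members and 0.04 for all genes. Pcdh18, a delta protocadherin that binds the reelin adaptor Dab1, was at 12.2 against 3.05 CPM (3.98-fold, 2.39 to 6.38, 22 UMIs), Cdh9 at 33.7 against 10.9 CPM (3.09-fold, 2.32 to 4.07), Pcdh19 at 103 against 43.4 CPM (2.38-fold, 2.04 to 2.78) and Pcdh10 at 102 against 49.5 CPM (2.06-fold, 1.76 to 2.4). Cdh7 was also past the line, on 14 UMIs. The ratio of Pcdh10 was 1.96 with at least 4000 UMIs and 1.998 under the stricter gates, just below the line in both. Calls were also lost for Pcdh19 under the stricter gates (1.73), for Cdh9 when each cell was given equal weight (1.67) and for Cdh7 in the first 2 of these settings (1.73 and 1.36). On the lower side, Cdh12 was 16.7-fold (6.5 to 61.3) lower at 2.21 against 36.9 CPM. Fat1, Fat4 and Fat3 were lower by 3.33-fold (2.15 to 5.48), 2.4-fold (1.77 to 3.35) and 2.18-fold (1.7 to 2.84), and Cdh20 had 4 UMIs in 304 interneurons. The layers were summed here, and the Fat genes differed between them. Fat1 was at 11.1 CPM in interneurons, 11.4 in deep-layer and 53 in upper-layer neurons. Deep-layer neurons held Fat4 at 24.3 CPM and Fat3 at 44.3 CPM, against 75.8 and 98.1 CPM in upper-layer neurons. Among 27 partner genes, 0 were higher and 2 were lower, of which Nectin3 was 18.9-fold (11.3 to 34.6) lower at 7.74 against 146 CPM.

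The interneuron groups were then compared with each other. Lhx6 marks interneurons from the medial ganglionic eminence, and Adarb2, Prox1 and Sp8 were used for those from the caudal eminence. Meis2, a marker of striatal-type inhibitory neurons, was at 841 CPM in Adarb2 interneurons and 18.5 CPM in Lhx6 interneurons. Other markers of that type were limited by the gates, and the origin of the gated cells was not tested. Of 25 members, 10 were higher in Lhx6 interneurons and 4 in Adarb2 interneurons, 56.0% in all, against 23.1% of 10870 genes (11.7% and 11.4% by direction). Among those called, Cdh9, Fat1, Cdh7 and Cdh22 reached the mean level required for comparison only through the group where they were higher. The filter favours such genes, so the share is a description. The median log2 ratio was 0.47 for members and -0.04 for all genes. Adarb2 interneurons were the shallower class, with 729719 UMIs against 1078741.

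The 61 UMIs of Cdh9 in interneurons all fell in the Lhx6 group. With 3 UMIs put in for 0 in the Adarb2 group, the ratio of Cdh9 was 13.8, which leaves out the counting error of its 61 UMIs. After thinning, 5.41% (2.36 to 10.4) of Lhx6 interneurons and 0 of 156 Adarb2 interneurons (up to 2.34%) had a UMI of Cdh9 (unthinned 18.9% and 0%, median depths 6250 and 4509 UMIs). Pcdh19 was at 162 against 16.4 CPM, or 9.87-fold (5.51 to 19.5) higher, and Cdh13 at 191 against 26 CPM, or 7.33-fold (4.58 to 12.4) higher. Pcdh7 was 4.35-fold (2.91 to 6.73), Pcdh15 3.72-fold (1.54 to 10.9) and Cdh8 3.61-fold (1.75 to 8.36) higher. The ratio of Cdh13 was 4.70 under the stricter gates and that of Pcdh15 was 8.06 with at least 4000 UMIs. Cdh11, Pcdh17, Fat1 and Cdh7 were past the line as well, Fat1 and Cdh7 with 2 UMIs each in Adarb2 interneurons, and the interval of Cdh7 held 1.

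Cdh4 was the clear member of the Adarb2 group, at 119 against 34.3 CPM, 3.48-fold (2.34 to 5.25) higher. The 3 others, Cdh22, Pcdh1 and Pcdh18, had 7 to 13 UMIs in Adarb2 interneurons and intervals that held a ratio of 1, and they were named after their values were seen. Cdh2 (1.3-fold, 1.06 to 1.59) and Pcdh9 (1.62-fold, 1.19 to 2.21) were higher in Adarb2 interneurons by less than 2-fold. Inhibitory neurons in neither group (65 cells) held Pcdh7 at 198 CPM (154 to 251), Pcdh10 at 201 CPM (157 to 254), Cdh13 at 161 CPM (121 to 209) and Cdh9 at 11.5 CPM (3.13 to 29.4). These cells had Meis2 at 1420 CPM and Foxp1 at 1087 CPM. Of 27 partner genes, 6 were higher in Lhx6 and 7 in Adarb2 interneurons, or 22.2% and 25.9%, against 11.7% and 11.4% of all genes. Among those called, Nectin3, Prickle1, Jup and Arvcf had intervals that held a ratio of 1. Ctnnd2, the neural delta-catenin, was 2.92-fold (2.27 to 3.79) higher in the Lhx6 group at 308 against 106 CPM, as was Prickle2 by 5.95-fold (2.37 to 19.2), whereas beta-catenin (Ctnnb1) was 2.38-fold (1.94 to 2.93) higher and Ctnna1 6.9-fold (1.93 to 37.4) higher in the Adarb2 group.

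**Figure D4:**
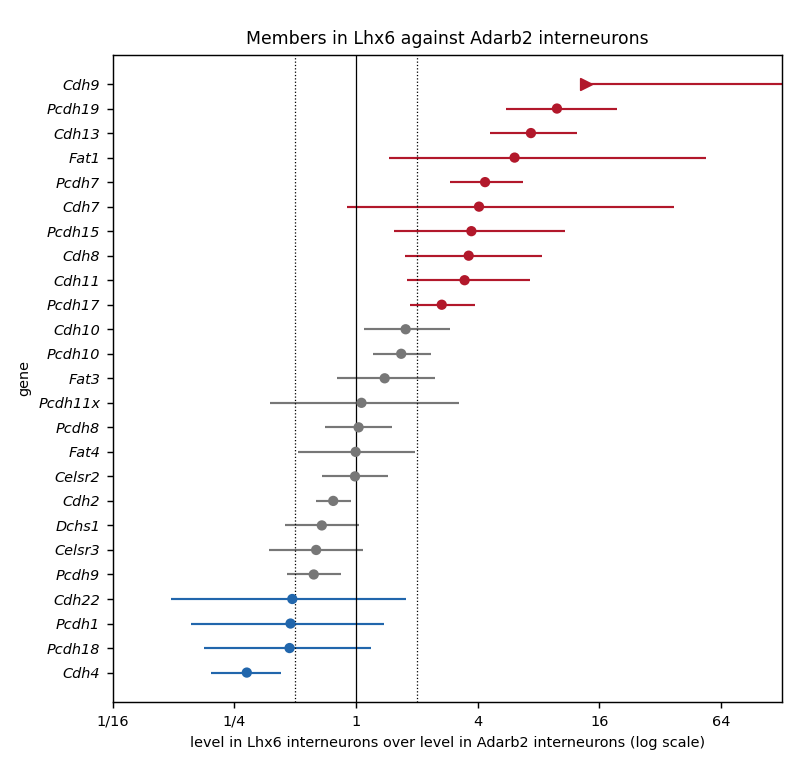
Ratio of the level in Lhx6 interneurons to that in Adarb2 interneurons for the 25 members compared (log axis), with 95% intervals for counting error. The solid line marks equal levels and dotted lines mark 2-fold. Members past 2-fold are red (10) or blue (4), and the arrow of Cdh9 is a lower bound of 13.8 from a limit of 3 UMIs.

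Radial glia or astrocytes, which express Aldoc and Slc1a3 and could not be split further by these gates, were compared with layer neurons. Here 7 of 26 members were higher and 10 lower, 65.4% in all, where 43.2% of 11494 genes differed (23.1% higher and 20% lower). Celsr1, Pcdh18, Cdh8, Celsr3, Cdh9 and Cdh12 were called, and reached the mean level required for comparison only through the class where they were higher. This share is thus a description. The median log2 ratio was -0.30 for members and 0.01 for all genes. Celsr1 was at 167 against 3.33 CPM, 50.1-fold (39.6 to 63.8) higher (94.8 under the stricter gates). Pcdh10 was at 413 against 49.5 CPM, 8.34-fold (7.54 to 9.2) higher. Both type I cadherins compared were on this side, Cdh4 with 4.22-fold (3.76 to 4.72) and Cdh2 with 2.72-fold (2.55 to 2.91) at 761 against 279 CPM. Fat1 was 3.11-fold (2.6 to 3.69) higher, and the others, Pcdh18 and Pcdh11x, had under 20 UMIs.

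The members lower in radial glia or astrocytes included 4 of the 6 type II cadherins compared and 0 type II cadherins were higher. Of all genes compared, 20% were lower and 23.1% higher. Cdh8, Cdh9 and Cdh12 passed the filter only through layer neurons, so they could only be called lower. The family count is thus a description. Cdh12 (3 UMIs) and Cdh8 (4 UMIs) were 15.9-fold (5.42 to 77.1) and 14.7-fold (5.72 to 54) lower. Cdh13 was 9.25-fold (5.6 to 16.5) lower at 11.6 against 107 CPM, and Celsr3, which guides axons, was 7.17-fold (3.28 to 19.6) lower at 4.64 against 33.3 CPM. Pcdh7 was 6.71-fold (4.69 to 9.95) and Fat3 5.87-fold (3.66 to 10.1) lower. The Celsr family was thus divided, with Celsr1 higher, Celsr3 lower and Celsr2 at 130.03 against 133 CPM.

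Among the partner genes, 7 of 28 were higher and 8 lower. These are 25% and 28.6%, where 23.1% and 20% of all genes were. The filter acts on partner genes as on members, and Fzd6 (10.1 against 0.249 CPM) passed it only through radial glia or astrocytes. The counts are thus descriptions. Fjx1, the relative of a Golgi kinase that acts on Fat and Dachsous proteins in flies, was 8.78-fold (8.17 to 9.43) higher at 795 against 90.6 CPM. Ctnna1 was 15.7-fold (13 to 19) higher at 141 against 8.97 CPM and its neural relative Ctnna2 was 2.09-fold (1.63 to 2.73) lower. Wasf1, a subunit of the WAVE complex, was 7.16-fold (5.14 to 10.3) lower at 27.1 against 194 CPM.

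The 44 dividing progenitors were compared with radial glia or astrocytes, at a depth that leaves wide intervals. Of 23 members, 1 was higher and 6 lower, 30.4%, against 25.5% of 11289 genes (13.4% higher and 12.1% lower). By direction, 4.35% of the members were higher and 26.1% lower, and the median log2 ratio was -0.66 for members and -0.01 for all genes. Of the 6 lower members, Pcdh11x and Pcdh19 had 1 against 16 UMIs and intervals that held 1. Celsr1 was at 165 against 167 CPM in the 2 classes. Pcdh10 was 2.14-fold (1.7 to 2.73) and Cdh4 2.1-fold (1.59 to 2.83) lower in dividing progenitors, and Pcdh9 was 2.08-fold (1.17 to 3.96) lower, a call lost under 2 settings. Pcdh15 was at 4.53 against 24 CPM with 2 UMIs in dividing progenitors. The 1 member on the higher side was Cdh7, with 5 against 2 UMIs, and it was named after its values were seen. Cdh7, Pcdh15, Pcdh11x and Pcdh19 reached the mean of 5 CPM only through the class where they were higher. Cdh2 was at 403 against 761 CPM, 1.89-fold (1.61 to 2.23) lower and short of the line. Of 26 partner genes, 1 was higher, Pkp4 at 79.3 against 17.8 CPM (4.45-fold, 2.56 to 7.89), and 2 were lower, Fjx1 by 2.97-fold (2.46 to 3.63) and Ctnnd2 by 2.23-fold (1.71 to 2.96).

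Oligodendrocyte precursors had their own set. Against radial glia or astrocytes, 7 of 23 members were higher and 8 lower, 65.2% in all, against 29.8% of 11498 genes (15.3% and 14.5% by direction). Celsr3 and Pcdh18 were called, and reached the mean level required for comparison only through the class where they were higher. This share is thus a description. The median log2 ratio was -0.07 for members and 0.07 for all genes. Pcdh11x, a delta protocadherin on the X chromosome, was at 133 against 12.4 CPM, 10.7-fold (6.32 to 19.5) higher. Pcdh15, which forms the tip links of hair cells in the inner ear together with Cdh23, was at 180.3 against 24 CPM, 7.52-fold (5.07 to 11.5) higher, while its inner-ear partner Cdh23 had 0 UMIs in oligodendrocyte precursors. After thinning, Pcdh15 had a UMI in 26.6% (18.6 to 35.9) of oligodendrocyte precursors and 4.6% (2.01 to 8.86) of radial glia or astrocytes (unthinned 58.7% and 16.1%, median depths 7212 and 7247 UMIs).

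Cdh13 was 5.79-fold (3.22 to 11), Pcdh7 2.89-fold (1.82 to 4.68), Pcdh17 2.7-fold (2.11 to 3.48) and Cdh20 2.51-fold (1.29 to 5.03) higher in oligodendrocyte precursors, the last on 25 UMIs. Not all of these were particular to the precursors. Among the 6 broad classes, Cdh13 was highest in interneurons (124 CPM), Pcdh7 in layer neurons (156 CPM) and Celsr3 in newborn neurons (38.4 CPM). Pcdh17 was at 218 CPM in the precursors, and the next class was layer IV at 181 CPM. Pcdh11x was at 133 CPM, next to 89.2 in Cajal-Retzius cells, and Cdh20 at 31.1 CPM, next to 16.2 in layer V. On the other side, Celsr1 was at 8.71 against 167 CPM, 19.2-fold (9.16 to 48.3) lower. Pcdh8 was 8.14-fold (4.53 to 16.1) and Cdh2 5.46-fold (4.49 to 6.7) lower, Cdh2 at 139 against 761 CPM. Cdh4 (3.53-fold, 2.69 to 4.69), Celsr2 (3.37-fold, 2.29 to 5.12) and Fat1 (2.56-fold, 1.77 to 3.79) were lower too. Pcdh10, at 198 against 413 CPM, was lower as well, although oligodendrocyte precursors came second among the 6 broad classes. Of 28 partner genes, 5 were higher and 5 lower, 17.9% each, against 15.3% and 14.5% of all genes. Wasf1 was 5.79-fold (3.95 to 8.67) higher and Fjx1 13.6-fold (10.1 to 18.6) lower.

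**Figure D5:**
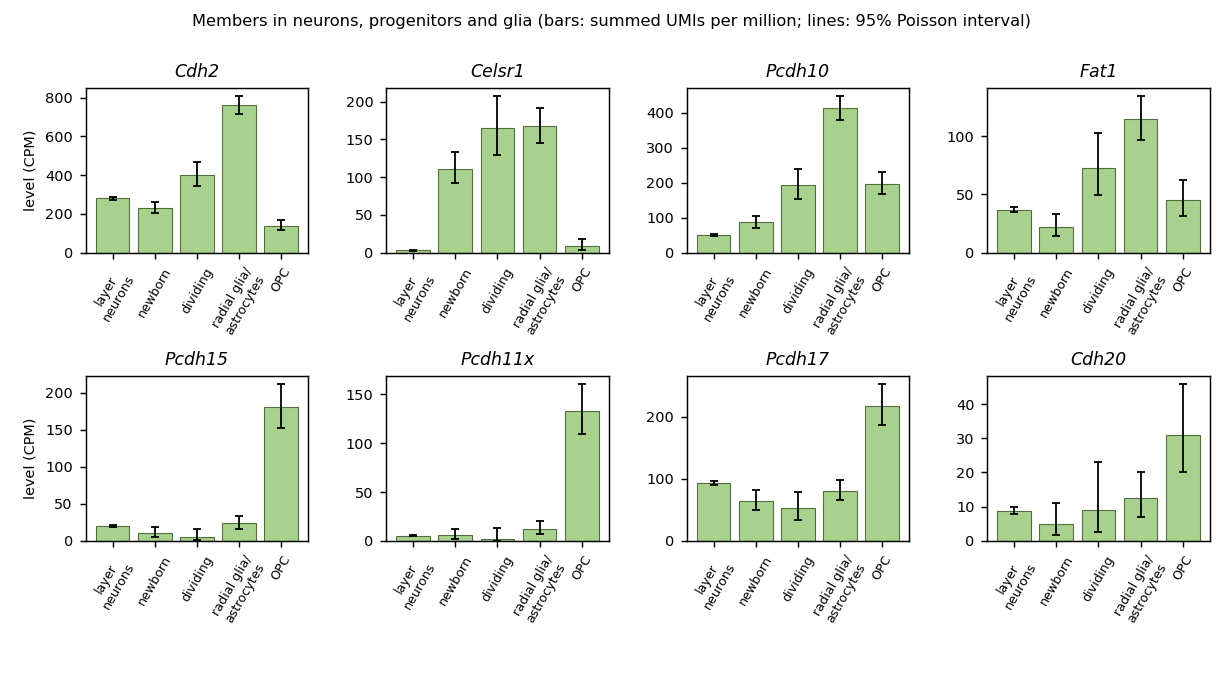
Level (CPM, linear axis from 0, own scale for each gene) of 8 members in layer neurons, newborn excitatory neurons, dividing progenitors, radial glia or astrocytes and oligodendrocyte precursors (OPC), with 95% Poisson intervals. Cdh2, Pcdh10 and Fat1 peaked in radial glia or astrocytes. Celsr1 was high in newborn neurons, dividing progenitors and radial glia or astrocytes. Pcdh15, Pcdh11x, Pcdh17 and Cdh20 peaked in oligodendrocyte precursors.

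Small classes held some of the sharpest members, each class having 13 to 20 cells. Cdh5, or VE-cadherin, the cadherin of endothelial junctions, had 245 UMIs in 20 endothelial cells, at 637 CPM (559.8 to 722), and 3 UMIs in 2995 layer neurons. Pcdh12, also called VE-cadherin-2, was at 59.8 CPM (37.9 to 89.7) in endothelial and 39.9 CPM (13 to 93.2) in mural cells, with 1 UMI in all layer neurons. Pcdh1 was at 237 CPM (191 to 291) in endothelial and 87.8 CPM in mural cells. Pcdh18 was at 551 CPM (429 to 697) in mural cells, and its next level was 23 CPM in other inhibitory neurons. Cajal-Retzius cells, the reelin-making neurons of the surface, held Cdh4 at 645 CPM (562 to 737), Fat3 at 232 CPM (183 to 289) and Pcdh11x at 89.2 CPM (60.2 to 127). Of Cajal-Retzius cells, 20% were among the 8% of cells with the highest doublet scores, and the part of this in their levels was not tested. In microglia the members had few counts, and Cdh2 was at 20.5 CPM on 2 UMIs.

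Over 11 classes, the profiles of 28 members were set beside each other as a description, since all classes come from 1 library. The median Pearson r of the 378 pairs was 0.00998. The most alike were Cdh11 and Cdh13 (r = 0.919, Spearman rho = 0.936), followed by Cdh13 and Pcdh7 (r = 0.899), and the least alike were Cdh4 and Cdh13 (r = -0.933). Cdh4 was higher in layer II/III and in Adarb2 interneurons, and Cdh13 in the deep layers and in Lhx6 interneurons.

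Type II cadherins are also known to follow cortical areas, which this library does not separate. Within a layer, cells with and without a UMI of a cadherin after thinning were compared for Lmo4, Lmo3, Nr2f1 and Bhlhe22, transcription regulators known from area patterning. In layer II/III, the 148 cells with Cdh10 had Lmo4 at 583 CPM and the 1416 without it at 403 CPM, a ratio of 1.45 (1.34 to 1.56), and their median depths were 8698 and 7745 UMIs. The same ratio in layer IV was 0.962 (0.867 to 1.07). The 166 cells with Cdh8 had a Lmo4 ratio of 1.34 (1.24 to 1.45), and the 24 in layer IV one of 1.45 (1.23 to 1.71). In layer IV, the 36 cells with Cdh11 had Lmo4 at 214 CPM against 366 CPM, a ratio of 0.586 (0.479 to 0.711), where layer II/III gave 1.1 (0.983 to 1.23). Their Lmo3 was at 197 against 136 CPM, a ratio of 1.45 (1.16 to 1.78), and in layer II/III the ratio was 1.61 (1.27 to 2.02). Of the 32 ratios computed, the one of Cdh6 with Lmo4 in layer II/III was the lowest at 0.260 and rests on 4 cells, and that of Cdh6 with Lmo3 in layer IV was the highest at 1.95, on 8 cells. For Nr2f1, ratios of Cdh8, Cdh10 and Cdh11 ranged from 0.777 (Cdh8 in layer IV) to 1.14 (Cdh8 in layer II/III), and for Bhlhe22 from 0.825 (Cdh10 in layer II/III) to 1.06 (Cdh11 in layer II/III). Cdh8 with Lmo3 was at 0.921 (0.659 to 1.26) in layer IV and 1.4 (1.16 to 1.68) in layer II/III. Cdh10 with Lmo3 was at 1.1 (0.937 to 1.29) in layer IV and 1.32 (1.09 to 1.6) in layer II/III. These ratios are a description, and their dependence on depth was not tested.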

How the data were processed

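Cells of P0 WT cortex were dissociated with papain and made into 1 library with a 3′ kit of 10x Genomics, according to the study's methods, and sequenced on an Illumina HiSeq. The submitters' processing notes name STAR, Cell Ranger 2, Seurat and the build mm9, with no roles given. The authors deposited raw UMI counts per gene and cell, with 51912 genes and 11062 cells, and no cell type labels. Cell totals had a median of 7196.5 UMIs.

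Gates, sums and ratios were computed in Python 3.11.15 with numpy 2.4.6, scipy 1.17.1 and pandas 2.3.3, and figures were drawn with matplotlib 3.10.9. Gate thresholds were set after marker counts were seen, not every gate marker is reported here, and the members, partner genes and other lists were chosen with earlier results of these data known. Cells in several gates (1) or in none (4557) were left out. Levels carry exact Poisson 95% intervals, shares exact Clopper-Pearson intervals and ratios exact conditional binomial intervals. Genes were compared at a mean of at least 5 CPM over the compared classes, and a class at 0 took a limit of 3 UMIs. A gene under 5 CPM in 1 class of a pair could thus be compared only through the other. This filter favours genes that differ, among members, partner genes and all genes alike, so the shares are descriptions. Shares were read after thinning each cell to 2000 UMIs. The counting code was tested on simulated data.

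Members were named with their highest class where that reached 20 CPM and 20 UMIs. In each comparison, up to 6 per direction with at least 20 UMIs in the higher class were given with values, and up to 4 partner genes. Doublets were not removed in the main values. A doublet score after Scrublet, in a version written for this work, gave no clear cut, and leaving out the 902 cells (8%) with the highest scores was an alternative chosen after seeing the data. UMIs at the 3′ end do not separate isoforms, and levels were not compared between genes. UMIs of free RNA were not corrected for.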

Additional observations from a re-analysis of the deposited data

How the results depend on the processing

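With 1 library, no alternative leaves out a replicate. No paired analysis was possible because no second group was analysed. Of 90 counts of members under alternatives, 75 stayed within 1.5 times the reported value. The share of all genes called under the same setting follows each count in brackets. Requiring a mean of at least 20 CPM gave 6 of 20 members (9.34%) in place of 10 for interneurons against layer neurons, 8 of 18 (14.8%) in place of 14 for Lhx6 against Adarb2 interneurons, 3 of 12 (18.9%) in place of 7 for dividing progenitors and 2 of 20 (3%) in place of 7 marking a layer. A minimum of 1 CPM gave 11 of 29 (29.5%) for dividing progenitors and 12 of 33 (6.96%) marking a layer. A 3-fold line gave 6 of 26 (9.47%) in place of 11 for newborn neurons, 5 of 26 (7.2%) for interneurons, 4 of 23 (11.6%) for dividing progenitors, 4 of 27 (1.78%) marking a layer and 4 of 27 (5.79%) in place of 9 marking a broad class. A 1.5-fold line gave 19 of 26 (38.9%) for newborn neurons, 15 of 23 (46.8%) for dividing progenitors, 14 of 27 (12%) marking a layer and 16 of 27 (26%) marking a broad class. These follow from the filters themselves. Of 456 values of 76 single ratios, 0 reversed, 44 left the counting interval and 412 stayed in it. All 30 thinned shares moved when cells were not thinned. Classes of 13 to 44 cells limit what depth can show, and a member at 0 there may still be expressed.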
